A study of Mus musculus with 6 samples.

Results

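The 6 genes Mrgprd, Mrgpra3, Mrgprx1, Mrgprb4, Mrgprb5 and Mrgpre, of the Mas-related G protein-coupled receptor family, were followed in cultured mouse dorsal root ganglion (DRG) neurons. They were chosen by symbol, and all 6 were found among the 35976 genes listed for each culture. RNA was sequenced after depletion of ribosomal RNA in 6 cultures, 3 given vehicle and 3 given HC-HA/PTX3, a hyaluronan matrix complex purified from human amniotic membrane. The comparison asked how gene expression in these neurons differed after prolonged exposure to HC-HA/PTX3. Neurons of both groups came from lumbar ganglia of wildtype C57BL/6 mice of both sexes, aged 2 to 3 months, and were dissociated with enzymes and kept in serum-containing medium with growth factors. Exposure to vehicle or to 15 µg/mL HC-HA/PTX3 began 24 h after plating and lasted 24 h. Whether each culture pooled several animals is not given in the sources used here.

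The libraries held 42516054, 42617496 and 54117547 counts for vehicle replicates 1, 2 and 3, and 37998071, 37434266 and 38420247 counts for HC-HA/PTX3 replicates 1, 2 and 3. Every treated library was thus smaller than every vehicle library. Levels are given in CPM, counts scaled to library size with TMM (edgeR's trimmed mean of M-values), and 1 CPM corresponded to between 37.1 and 56.0 counts. Where a gene had 0 counts, its level was below the limit of 3 counts, which came to at most 0.0808 CPM in these libraries and covers counting error only. The neuronal label was checked on 9 general neuronal markers, whose summed level was 6363, 5422 and 6089 CPM in vehicle replicates 1, 2 and 3 and 6580, 5884 and 6800 CPM in HC-HA/PTX3 replicates 1, 2 and 3. The cultures also held markers of other cells. For 8 satellite glia markers the sums were 2254, 1297 and 515 CPM in the vehicle cultures and 2124, 1308 and 516 CPM in the treated ones, with Apoe the most abundant. Glial markers therefore differed more between replicate numbers than between same-numbered cultures.

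Mas-related receptors are G protein-coupled receptors of small-diameter sensory neurons, and several of them detect itch-provoking substances. In rodents, Mrgprd marks non-peptidergic nociceptors that end in the epidermis, Mrgpra3 and Mrgprx1 (also called MrgprC11) mark pruriceptors, and Mrgprb4 marks fibers that respond to gentle stroking of hairy skin. The transcription factor Runx1 is needed for the expression of many of these receptors during development. Several of them signal through Gq proteins and phospholipase C, and channels such as Trpa1 lie downstream of some.

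After 24 h of HC-HA/PTX3, the levels of the listed receptors moved in opposite directions. Mrgprx1 fell by 1.28 on the log2 scale and Mrgpra3 fell by 0.56, whereas Mrgprd rose by 0.62, in the edgeR quasi-likelihood fit that compares same-numbered cultures. Of the 6 receptors, 4 passed the low-count filter and were tested, and 3 of these were called, 1 higher and 2 lower. Across all 18277 tested genes, 8.70% were called, 3.32% higher and 5.38% lower, and 33.2% had an unadjusted p-value under 0.05. To be called, a gene had to differ by more than 0.5 on the log2 scale, in either direction, with a p-value below 0.05 after Benjamini-Hochberg adjustment. Mrgpre did not pass the test, and Mrgprb4 and Mrgprb5 had too few counts to be tested. The calls rest on the replicate block: without it the same edgeR test called 0 of the 18277 genes, with 2089 at an unadjusted p-value under 0.05, and none of the 4 tested receptors. A figure legend of the study calls the replicates biological, but the labels do not say whether they came from separate animals. With the block, the p-values measure the spread left within these cultures after differences between replicate numbers are removed. Without it, they measure the spread between the cultures of a group. In RNA from whole cultures, fewer cells of a type and less RNA per cell cannot be told apart.

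**Figure D1:**
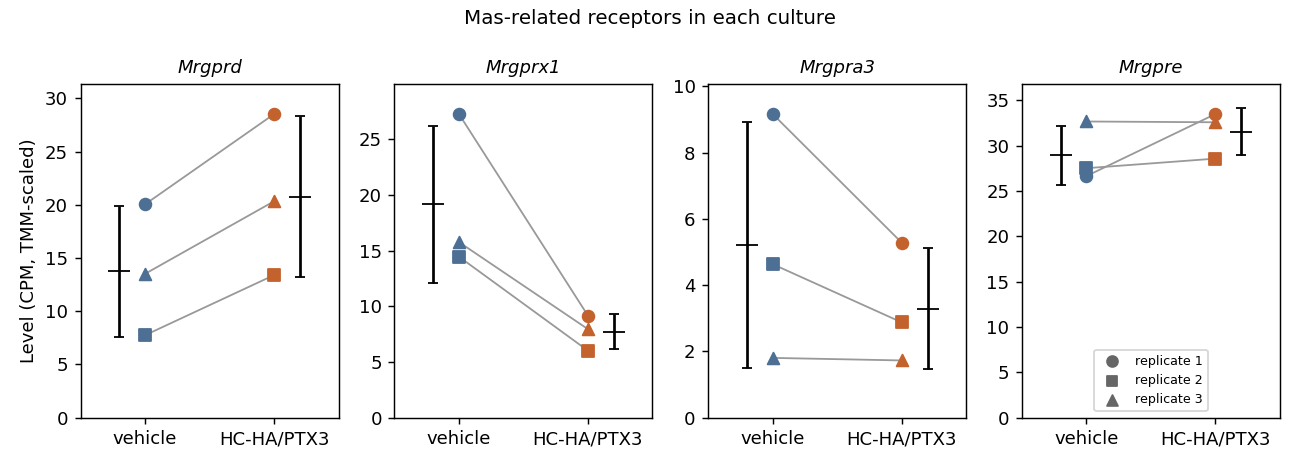
Level of the 4 tested receptors in each culture (y axis, TMM-scaled CPM, starting at 0). Symbols give the replicate number, gray lines join same-numbered cultures, and black bars beside the points show mean ± SD (n = 3); Mrgprd was higher and Mrgprx1 lower in the treated culture of every pair.

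Mrgprd encodes a receptor for beta-alanine and is the marker of the largest class of non-peptidergic nociceptors. The gene lies on chromosome 7 (145314835 to 145324086, plus strand, mm10 in GENCODE M21). Raw counts were 803, 333 and 757 in vehicle replicates 1, 2 and 3, and 1059, 508 and 801 in HC-HA/PTX3 replicates 1, 2 and 3. Scaled to library size, the vehicle cultures had 20.1, 7.75 and 13.5 CPM and the treated cultures 28.5, 13.4 and 20.3 CPM. Replicate 1 was the highest and replicate 2 the lowest in both groups, and the groups overlapped, although each treated culture lay above the vehicle culture of its own number. The paired log2 differences were 0.51, 0.79 and 0.59 for replicates 1, 2 and 3. The fitted log2 fold change was 0.62 ± 0.10 (SE; 95% interval 0.40 to 0.84), with an adjusted p-value of 0.00267 in edgeR's quasi-likelihood test (Benjamini-Hochberg). Without the replicate block it was 0.59 ± 0.39 (SE), with an adjusted p-value of 0.63 in the same test.

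Mrgprx1 encodes the receptor of the pruriceptors that responds to peptides cut from proenkephalin, and it lies on chromosome 7 from 48020971 to 48027597 on the minus strand. Vehicle replicates 1, 2 and 3 gave 1092, 621 and 883 counts, against 340, 228 and 313 for the HC-HA/PTX3 cultures of the same numbers. These counts were worth 27.3, 14.5 and 15.8 CPM with vehicle and 9.16, 6.01 and 7.95 CPM with HC-HA/PTX3. The groups did not overlap, as was the case for 18.0% of all tested genes in either direction, and the highest treated culture stayed below the lowest vehicle culture. Same-numbered cultures differed by -1.57, -1.27 and -0.99 on the log2 scale. The fit gave -1.28 ± 0.13 (SE; 95% interval -1.56 to -0.997) and an adjusted p-value of 0.000481 (edgeR quasi-likelihood, Benjamini-Hochberg). Without the block the log2 fold change was -1.31 ± 0.29 (SE), and the adjusted p-value of that edgeR fit was 0.251.

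Mrgpra3, a receptor for chloroquine and the other marker of the pruriceptors, lies on the same chromosome from 47588950 to 47601372 on the minus strand. Its counts were 367, 199 and 101 in vehicle replicates 1, 2 and 3, and 196, 109 and 68 in HC-HA/PTX3 replicates 1, 2 and 3. In CPM, this came to 9.16, 4.63 and 1.80 with vehicle and 5.28, 2.88 and 1.73 with HC-HA/PTX3. Replicate number separated the cultures more than treatment did, with replicate 1 highest and replicate 3 lowest in each group, and the groups overlapped. The paired log2 differences were -0.80, -0.69 and -0.06, so replicate 3 showed almost none of the decrease. The log2 fold change of -0.56 ± 0.17 (SE; 95% interval -0.95 to -0.17) passed narrowly, at an adjusted p-value of 0.0484 in edgeR's quasi-likelihood test (Benjamini-Hochberg), and that p-value was 0.76 without the block. Leaving out the pair of replicate 1 gave -0.40 with an adjusted p-value of 0.355, leaving out replicate 2 gave -0.50 with 0.194, and leaving out replicate 3 gave -0.73 with 0.00649, in the same edgeR test.

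Mrgpre encodes an orphan receptor and sits on chromosome 7 from 143778363 to 143784500 on the minus strand. Vehicle replicates 1, 2 and 3 had 1067, 1182 and 1829 counts, and HC-HA/PTX3 replicates 1, 2 and 3 had 1243, 1083 and 1283. Expressed in CPM, these were 26.6, 27.5 and 32.7 with vehicle and 33.5, 28.6 and 32.6 with HC-HA/PTX3. The cultures lay close together and the groups overlapped. The log2 fold change was 0.13 ± 0.09 (SE; 95% interval -0.07 to 0.32), with an adjusted p-value of 0.355 (edgeR quasi-likelihood, Benjamini-Hochberg). No change was called, and the data are compatible with changes across that interval. A small annotated RNA gene on the opposite strand, Gm22064, overlaps 66 bases of its exons, and reads of the overlap cannot be assigned with certainty because the strand setting of the counting is not given in the sources used here.

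The 250 bases upstream of the annotated start of the 3 tested receptors with an entry in the RefSeq table (GRCm38.p6) are shown because these genes lie on 1 chromosome yet differed in direction: Mrgprd rose, Mrgprx1 fell and Mrgpre did not pass. The windows are chr7:145314585-145314834 on the plus strand for Mrgprd, chr7:48027598-48027847 on the minus strand for Mrgprx1 and chr7:143784501-143784750 on the minus strand for Mrgpre. Each is written 5′ to 3′ along the gene's own strand, and capitals mark the core motif of RUNX factors, TGTGG or its reverse complement CCACA.
Mrgprd: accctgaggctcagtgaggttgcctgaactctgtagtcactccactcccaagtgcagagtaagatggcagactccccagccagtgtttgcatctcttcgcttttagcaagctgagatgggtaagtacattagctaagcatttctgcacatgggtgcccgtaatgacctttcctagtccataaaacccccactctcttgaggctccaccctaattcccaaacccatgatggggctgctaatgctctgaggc
Mrgprx1: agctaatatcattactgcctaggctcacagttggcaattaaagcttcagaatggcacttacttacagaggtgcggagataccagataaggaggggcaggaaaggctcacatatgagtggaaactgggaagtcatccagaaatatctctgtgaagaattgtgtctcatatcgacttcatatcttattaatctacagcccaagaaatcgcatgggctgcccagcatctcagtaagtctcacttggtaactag
Mrgpre: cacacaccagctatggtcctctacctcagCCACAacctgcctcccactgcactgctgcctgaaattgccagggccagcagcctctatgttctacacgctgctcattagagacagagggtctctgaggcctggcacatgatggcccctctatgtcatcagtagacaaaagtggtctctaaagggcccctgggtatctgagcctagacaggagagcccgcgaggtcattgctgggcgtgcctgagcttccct
The RUNX core was found on either strand in 49.3% of all 32851 windows of the same length, and TATAAA or its reverse complement TTTATA in 12.4%. The Mrgpre window held 1 RUNX core, with its first base at position -221 from the start and the TGTGG letters on the opposite strand. The letters of neither motif were in the windows of Mrgprd and Mrgprx1. A match describes these letters only, and its absence says nothing about a factor. The G and C content was 51.2% for Mrgprd, 43.6% for Mrgprx1 and 57.2% for Mrgpre. Mrgpra3 has no entry in the table.

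Levels can be compared between genes only per length of transcript. Per kilobase of exon, Mrgprx1 led in the vehicle cultures at 16.2 ± 5.97 CPM per kb (SD, n = 3), followed by Mrgpre at 7.69 ± 0.865, Mrgprd at 4.38 ± 1.96 and Mrgpra3 at 4.02 ± 2.87 CPM per kb. Mrgprx1 exceeded Mrgpre in all 3 vehicle cultures, while Mrgprd and Mrgpra3 differed by less than their spread. In the treated cultures the order was Mrgpre at 8.39 ± 0.696, Mrgprd at 6.60 ± 2.41, Mrgprx1 at 6.53 ± 1.34 and Mrgpra3 at 2.54 ± 1.40 CPM per kb (SD, n = 3). There, Mrgpre exceeded Mrgprx1 in all 3 cultures, while Mrgprd could not be ordered against either beyond its spread. As a share of the summed level per kb of the 6 receptors, Mrgprx1 made up 52.8%, 47.8% and 47.9% in vehicle replicates 1, 2 and 3 and 25.4%, 26.5% and 28.4% in HC-HA/PTX3 replicates 1, 2 and 3. Mrgprd made up 14.6%, 9.61% and 15.4% of that sum with vehicle and 29.6%, 22.1% and 27.3% with HC-HA/PTX3. Neither receptor's shares overlapped between the groups, but the shares depend on each other. With Mrgprx1 left out of the sum, those of Mrgprd were 30.9%, 18.4% and 29.5% with vehicle and 39.7%, 30.1% and 38.1% with HC-HA/PTX3, and the groups overlapped.

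The balance of nociceptor and pruriceptor receptor was also taken within each library, where scaling has no part. The log2 ratio of Mrgprd to Mrgprx1 counts was -0.44, -0.90 and -0.22 in vehicle replicates 1, 2 and 3 and 1.64, 1.15 and 1.35 in HC-HA/PTX3 replicates 1, 2 and 3. These counts are not divided by transcript length, so the sign of the ratio does not order the receptors. Per kb, Mrgprx1 was above Mrgprd in every vehicle culture and still above it in treated replicates 2 and 3, at 5.10 against 4.26 and 6.74 against 6.47 CPM per kb. The ratio shifted by 1.90 ± 0.28 on the log2 scale (mean and SD of 3 pairs). A two-sided exact permutation test of 3 cultures against 3 gave p = 0.1 and an exact sign-flip test over the 3 pairs gave p = 0.25, each the smallest value its design allows. The pair of genes was chosen with earlier results of these data known. For the receptors that share the pruriceptors, the log2 ratio of Mrgpra3 to Mrgprx1 was -1.57, -1.64 and -3.12 in vehicle replicates 1, 2 and 3 and -0.79, -1.06 and -2.19 in HC-HA/PTX3 replicates 1, 2 and 3. It was higher in the treated culture of each pair, by 0.76 ± 0.18 (SD of 3 pairs), but the groups overlapped (exact permutation p = 0.4, exact sign-flip p = 0.25). As a description of these 3 pairs, the observed ratio of Mrgpra3 to Mrgprx1, both called lower, was not fixed. Neither exact p-value was under 0.05.

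**Figure D2:**
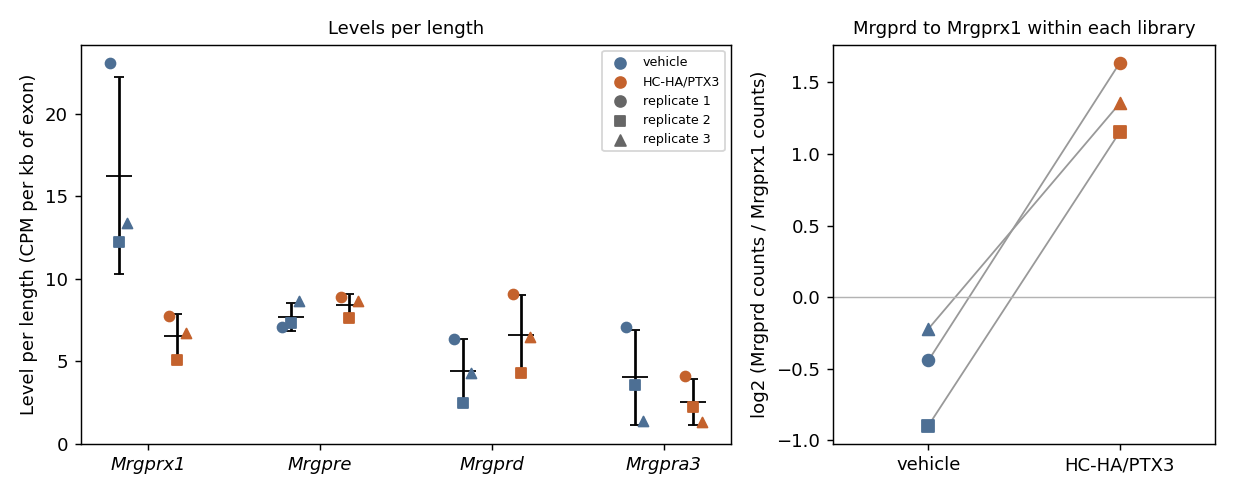
Left, levels per length of the 4 tested receptors (y axis, CPM per kb of exon, from 0), with points for cultures and black bars for mean ± SD (n = 3). Right, log2 ratio of Mrgprd to Mrgprx1 counts in each library, lines joining same-numbered cultures; the 3 treated cultures lie above the 3 vehicle cultures, and counts are not divided by length.

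Mrgprb4 and Mrgprb5 are close relatives, 29.05 kb apart on chromosome 7, and both had few counts, 0 to 24 a library. Mrgprb5 (48167983 to 48169019, minus strand) had 3, 2 and 3 counts in vehicle replicates 1, 2 and 3 and 24, 3 and 14 counts in HC-HA/PTX3 replicates 1, 2 and 3. HC-HA/PTX3 replicates 1 and 3 stood above the other 4 cultures, whereas replicate 2 did not differ from vehicle beyond counting error (95% Poisson interval 0.619 to 8.77 counts for its 3 counts, 0.242 to 7.22 for the 2 counts of its vehicle partner). Over the groups, 41 treated counts stood against 8 vehicle counts, a ratio of 6.23 after scaling with an exact Poisson interval of 2.88 to 15.4 that covers counting error only. The low-count filter removed Mrgprb5. With every gene of at least 1 count kept, edgeR's quasi-likelihood test gave a log2 fold change of 2.46 and a Benjamini-Hochberg adjusted p-value of 0.00344, in a fit that also lowered the adjusted p-value of Mrgprx1 to 3.97e-22. DESeq2 with the block gave Mrgprb5 a log2 fold change of 2.34 with an unadjusted p-value of 0.022 and no adjusted p-value, hence no call. Mrgprb4 (48198070 to 48199288, minus strand) had 2, 0 and 9 counts with vehicle and 8, 0 and 8 counts with HC-HA/PTX3. Both replicate 2 cultures were at 0, and the groups overlapped. The ratio of the summed counts, 16 treated against 11 vehicle, was 1.77 (exact Poisson interval 0.770 to 4.21), so no difference was detectable at this depth. In vehicle cultures the means were 0.0583 ± 0.0148 CPM for Mrgprb5 and 0.0702 ± 0.0823 CPM for Mrgprb4 (SD, n = 3).

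**Figure D3:**
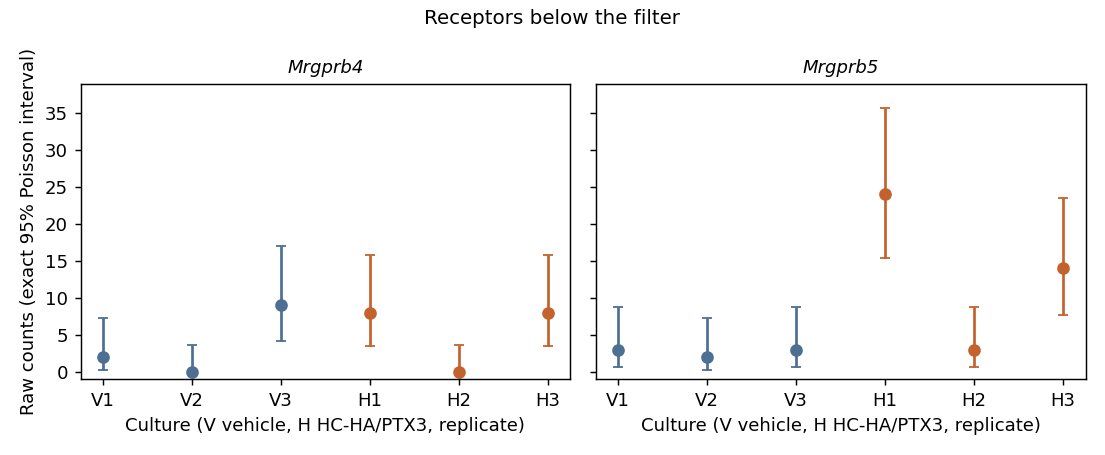
Raw counts of Mrgprb4 and Mrgprb5 in each culture (y axis) with exact 95% Poisson intervals, V for vehicle and H for HC-HA/PTX3 with the replicate number. Mrgprb5 reached 24 and 14 counts in treated replicates 1 and 3 and at most 3 elsewhere.

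Beyond the 6 listed receptors, the files hold 16 further genes of the family, Mas1 included. Of these, 6 passed the filter and were tested, and edgeR with the block called 0, with 3 at an unadjusted p-value under 0.05 (33.2% of all tested genes). Limma-voom with the block also called 0, DESeq2 called 0 of the 3 genes to which it gave an adjusted p-value (Mrgpra4 was not among them), and limma after ComBat-seq called 1, Mrgpra4. Mrgpra4, the nearest tested neighbor of Mrgprx1 at 38.88 kb, had 17, 24 and 16 counts in vehicle replicates 1, 2 and 3 and 9, 6 and 6 in HC-HA/PTX3 replicates 1, 2 and 3. Its groups did not overlap, at a log2 fold change of -1.17 ± 0.41 (SE) and an adjusted p-value of 0.0704 (edgeR quasi-likelihood, Benjamini-Hochberg). Mrgpra9 had 225, 110 and 103 counts with vehicle and 101, 89 and 51 with HC-HA/PTX3, at -0.58 ± 0.21 (SE) with an adjusted p-value of 0.077 in that test. Both missed the threshold for a call.

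The neighbor of Mrgprd on the same strand is Mrgprf, an orphan receptor gene 5.28 kb away. Its counts were 736, 483 and 97 in vehicle replicates 1, 2 and 3 and 589, 319 and 44 in HC-HA/PTX3 replicates 1, 2 and 3, high in replicate 1 and low in replicate 3 of both groups. This order of replicates was not that of Mrgprd. It was the order of the satellite glia markers and also that of Mrgpra3, and the part of glia in either gene's level was not tested. The log2 fold change of Mrgprf was -0.37 ± 0.13 (SE), with an adjusted p-value of 0.0658 in edgeR's quasi-likelihood test (Benjamini-Hochberg). Mrgpra2a and Mrgpra2b, with 155 and 489 counts over the 6 cultures, share 73.4% and 68.2% of their transcripts' stretches of 100 bases with each other, so their counts could have been split between them. Their log2 fold changes were -0.40 ± 0.30 and -0.25 ± 0.20 (SE), and that of Mrgpra1, a receptor for bilirubin with 82 counts, was 0.04 ± 0.38 (SE). None of these passed. The 6 listed receptors share no such stretch with any other annotated transcript.

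The other family genes had few counts or none. Over the 6 cultures, Mas1 had 67 counts, Mrgprh 43, the pseudogene Mrgprb13 17 and Mrgprb1 12, and none passed the filter. Mrgprx2, Mrgpra6, Mrgprb8, Mrgprb2 and Mrgprg had 5, 4, 2, 2 and 1 counts, and Mrgprb3 had 0 in every culture. Mrgprb2 encodes the receptor through which mast cells respond to basic secretagogues, and it had 2, 0 and 0 counts with vehicle and 0 in the 3 treated cultures. Summed over the whole family, levels were 112, 72.4 and 70.8 CPM in vehicle replicates 1, 2 and 3 and 100.4, 64.6 and 68.5 CPM in HC-HA/PTX3 replicates 1, 2 and 3.

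**Figure D4:**
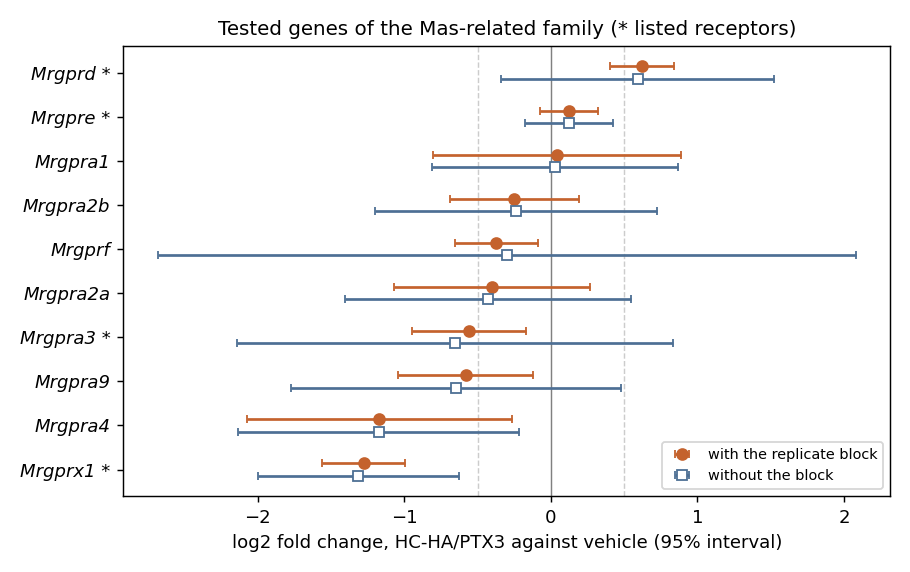
Log2 fold change of HC-HA/PTX3 against vehicle (x axis) with 95% intervals for the 10 tested family genes, with the replicate block (filled circles) and without it (open squares). Dashed lines mark the fold-change threshold of 0.5, and the intervals without the block are wider for 9 of the 10 genes, all but Mrgpra1.

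The neuron classes that carry these receptors were described by marker lists, each beside the median log2 fold change of all tested genes, which was -0.01. In the list for non-peptidergic nociceptors (NP1), all 13 genes were tested, and 2 were called higher and 1 lower (3.32% and 5.38% of all tested genes), with a median of 0.06. Apart from Mrgprd, the called genes were Wnt2b, a secreted WNT ligand, at 0.79 ± 0.11, and Lpar5, a lysophosphatidic acid receptor, at -0.76 ± 0.20 (log2 fold change ± SE), with adjusted p-values of 0.00145 and 0.0244 in edgeR's quasi-likelihood test (Benjamini-Hochberg). P2rx3, the ATP-gated channel and most abundant gene of this list, had a mean of 370 CPM in vehicle and 384 CPM in treated cultures and was not called. The summed level of the list was 934, 847 and 1004 CPM in vehicle replicates 1, 2 and 3 and 975, 840.1 and 1100.0 CPM in HC-HA/PTX3 replicates 1, 2 and 3. The sums overlapped between the groups, and the called genes of the list went in both directions.

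Of the 5 genes in the list for Mrgpra3-positive pruriceptors (NP2), 2 were called lower (5.38% of all tested genes), Mrgprx1 and Mrgpra3 themselves. The other 3 were not called by edgeR, limma-voom or DESeq2 with the block, or by limma after ComBat-seq, though each had an unadjusted edgeR p-value under 0.05, as had 33.2% of all tested genes. Gfra1, a GDNF receptor subunit, averaged 289 CPM in vehicle and 259.7 CPM in treated cultures, Rgs10 at 31.7 and 36.8 CPM, and Trpc6 at 5.41 and 6.73 CPM. Their log2 fold changes were -0.18 ± 0.07, 0.23 ± 0.09 and 0.32 ± 0.13 (SE), so that Gfra1 had the sign of the receptors and the other 2 genes the opposite. The list summed to 442, 356 and 254 CPM in vehicle replicates 1, 2 and 3 and to 401, 325 and 217 CPM in HC-HA/PTX3 replicates 1, 2 and 3, lower in every same-numbered pair, with overlap between the groups and Gfra1 the most abundant. In the list for pruriceptors that express natriuretic peptide (NP3), 1 of 8 genes was called higher (3.32% of all tested genes), Nppb, which encodes the itch transmitter of these cells. Nppb was at 1.30, 2.05 and 1.61 CPM in vehicle replicates 1, 2 and 3 and at 3.23, 3.14 and 2.77 CPM in HC-HA/PTX3 replicates 1, 2 and 3, without overlap. Its log2 fold change was 0.89 ± 0.20 (SE), at an adjusted p-value of 0.0119 (edgeR quasi-likelihood, Benjamini-Hochberg), and the list's median was 0.21.

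With the block, edgeR called no gene among the lineage factors, the signaling genes and the ligand precursors. Among 14 transcription factors and growth factor receptors of the lineage, 5 had an unadjusted p-value under 0.05 (33.2% of all tested genes), the median was -0.04, and limma-voom, DESeq2 and ComBat-seq with limma also called 0. Runx1 and its partner Cbfb had log2 fold changes of -0.22 ± 0.06 and -0.39 ± 0.07 (SE) with adjusted p-values of 0.0316 and 0.00431 (edgeR quasi-likelihood, Benjamini-Hochberg), below the fold-change threshold. Etv5, the third gene of the list with an adjusted p-value under 0.05, was at 0.30 ± 0.06 (SE; 0.00878 in the same edgeR test), likewise below that threshold, and its groups did not overlap. Cbfb was at 387, 344 and 427 CPM in vehicle replicates 1, 2 and 3 and 264, 283 and 336 CPM in HC-HA/PTX3 replicates 1, 2 and 3, and its groups did not overlap. Ret, the most abundant of the list, averaged 989.6 CPM in vehicle and 929 CPM in treated cultures.

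The 26 genes of Gq signaling and its effector channels had a median of 0.02, with 9 at an unadjusted p-value under 0.05 (33.2% of all tested genes) and 0 called by any of the same 4 methods, DESeq2 giving an adjusted p-value to 25 of them. Among the abundant genes, Gnb1, a G protein beta subunit, was at 769 and 747 CPM with vehicle and HC-HA/PTX3, and Arrb1, an arrestin, at 725 and 767 CPM. Gnaq, an alpha subunit that couples several of these receptors to phospholipase C, was at 361 and 323 CPM. Trpa1, the irritant channel downstream of Mrgpra3 and Mrgprx1, was at 37.6 and 46.9 CPM, a log2 fold change of 0.32 ± 0.07 (SE) that lay below the threshold. Of 12 ligand precursors and proteases, 8 were tested and 0 called, with 4 at an unadjusted p-value under 0.05, beside 33.2% of all tested genes, and a median of 0.16. Limma-voom called 0, DESeq2 called 0 of the 7 with an adjusted p-value, and ComBat-seq with limma called 2, Pomc and Sst. In edgeR with the block, the precursor genes Pomc and Sst had log2 fold changes of 0.69 ± 0.26 and 0.57 ± 0.23 and the cytokine gene Tslp -0.89 ± 0.38 (SE), with adjusted p-values of 0.0863, 0.118 and 0.128 (Benjamini-Hochberg). Penk, the precursor of the peptides that act on Mrgprx1, was at 10.6 and 10.9 CPM, and the protease gene Ctsl at 622 and 679 CPM.

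**Figure D5:**
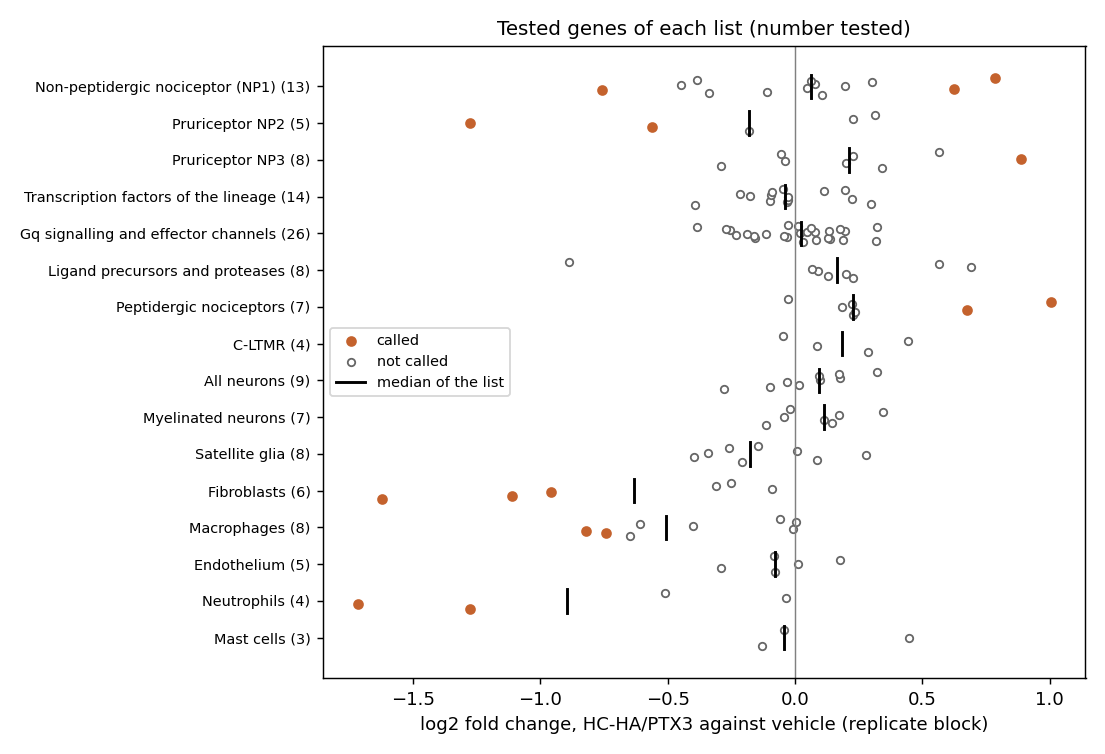
Log2 fold change (x axis) of every tested gene in each list, in the fit with the replicate block; filled points were called, open points were not, and black bars are list medians. The number tested is given after each name, and the called genes of the pruriceptor NP2 list are the receptors Mrgprx1 and Mrgpra3.

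Markers of other neurons and other cells were measured in the same libraries. Of 7 genes of peptidergic nociceptors, 2 were called higher (3.32% of all tested genes), the neuropeptide genes Tac1, at 65.0 CPM in vehicle and 131 CPM in treated cultures, and Calcb, at 103 and 163 CPM, and the median log2 fold change was 0.23. The 9 general neuronal markers, 7 markers of myelinated neurons and 4 of C-fiber low-threshold mechanoreceptors had medians of 0.09, 0.11 and 0.19. None of their genes was called by the 4 methods, with 4, 2 and 2 at an unadjusted edgeR p-value under 0.05 (33.2% of all tested genes). Tubb3, a neuronal tubulin, averaged 1216 CPM in vehicle and 1373 CPM in treated cultures, Nefm, a neurofilament, at 897 and 959.7 CPM, and Tafa4 at 40.4 and 49.6 CPM. The 8 satellite glia markers had a median of -0.18, with 0 called by the 4 methods and 5 at an unadjusted p-value under 0.05, beside 33.2% of all tested genes.

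Fibroblast, macrophage and neutrophil lists held genes called lower, as were 5.38% of all tested genes. Of 6 fibroblast markers, 3 were called lower, Col1a1 at -1.62 ± 0.17, Col1a2 at -1.11 ± 0.18 and Col3a1 at -0.96 ± 0.17 (log2 fold change ± SE), and the median was -0.63. The list summed to 2138, 2152 and 895 CPM in vehicle replicates 1, 2 and 3 and to 1151, 1382 and 303 CPM in HC-HA/PTX3 replicates 1, 2 and 3, with Col3a1 the most abundant. Dcn, a fibroblast proteoglycan, was at 115 and 109 CPM and was not called. Of 8 macrophage markers, 2 complement genes were called lower, C1qb at -0.82 ± 0.19 and C1qa at -0.74 ± 0.20, and the sums were 80.7, 106 and 87.9 CPM with vehicle and 73.4, 105 and 63.5 CPM with HC-HA/PTX3, led by Lyz2. Of 4 tested neutrophil markers, Mpo and Elane were called lower at -1.72 ± 0.31 and -1.28 ± 0.39, within sums of 6.42, 10.9 and 6.71 CPM and of 3.37, 6.49 and 6.83 CPM, led by S100a9. The medians of the macrophage and neutrophil lists were -0.51 and -0.89, and no marker of these 3 lists was at 0 in all cultures. The part of these cells in the levels of the receptors was not tested. The 5 endothelial markers and the 3 tested mast cell markers had medians of -0.08 and -0.04, with 0 called by the 4 methods (DESeq2 gave an adjusted p-value to 2 of the 3 mast cell markers) and 0 at an unadjusted p-value under 0.05. Cdh5 was at 91.7 and 87.6 CPM, and the mast cell list summed to 60.8, 40.7 and 42.8 CPM with vehicle and 52.4, 45.5 and 42.6 CPM with HC-HA/PTX3, nearly all of it Kit.

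The genes whose log2 CPM followed each tested receptor most closely over the 6 cultures were sought among 13575 tested genes that averaged 1 log2 CPM or more, as a description. For Mrgprd they were Pik3c3, Mt3 and Ctsl (Pearson r = 0.996, 0.994 and 0.993), and for Mrgprx1 they were Kcnk18, which encodes the potassium channel TRESK, Med12l and Eps15l1 (r = 0.996, 0.996 and 0.992). Those of Mrgpra3 were Gm41098, Zfp608 and Megf9 (r = 0.994, 0.993 and 0.993), and for Mrgpre they included Ifnar1 and Dusp16 (r = 0.990 and 0.987). All 6 points share the grouping by treatment and replicate number. After replicate means were removed, 1 of the 3 genes for Mrgprd, Pik3c3, was again among the closest 3, and 0 of 3 for each of Mrgprx1, Mrgpra3 and Mrgpre.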

How the data were processed

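The members and the gene lists were chosen with earlier results of these data known. Per the labels and methods, the authors prepared ribosomal RNA-depleted libraries, aligned reads to mm10 and deposited raw gene counts, whole numbers that were neither normalized nor pooled. The methods name HISAT2 and featureCounts, whereas the headers of the count files name STAR; versions and the strand setting are not given in the sources used here.

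Groups and replicate numbers came from the labels. Counts were analysed in R 4.3.3 with edgeR 4.0.16 (filterByExpr by treatment, TMM, glmQLFit and glmQLFTest, replicate number as block, Benjamini-Hochberg adjustment over 18277 genes). The pairing was described across genes: after group means were subtracted, vehicle and treated cultures of the same number correlated at 0.631, 0.536 and 0.774. Other combinations correlated at -0.613 to 0.148. The limit set was 0.1, and vehicle 1 with treated 2 (0.104) and vehicle 2 with treated 1 (0.148) were above it too. That same-numbered cultures deviate together was known from these data before the block was chosen. These correlations are therefore no independent support for the block. The paper names a batch term without listing batches, and the replicate number stood for it. No libraries of a group were duplicates (chi-square per degree of freedom 34.5 to 119). SEs were derived from the F statistic.

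Named genes were the 6 receptors, other family genes with at least 10 counts in all, and genes of the reported lists. From these lists, called genes were named first by p-value, otherwise mostly the most abundant. Penk was named although more abundant genes of its list were not. Genes among the 3 most correlated with each tested receptor were also named. Further names in the text, among them family genes of fewer counts and Gnaq, Trpa1, Runx1, Cbfb, Etv5, Pomc, Sst, Tslp and Dcn, were chosen after their values were seen. Grk2, Grk3 and Tafa4 were matched through the RefSeq synonyms Adrbk1, Adrbk2 and Fam19a4. Alternatives were limma-voom (limma 3.58.1), DESeq2 1.42.0, ComBat-seq (sva 3.50.0) followed by limma, other filters and scalings, no block, no fold-change threshold and each pair left out. The tests were tried on simulated counts first. Ratios of counts used a pseudocount of 0.5, and log2 CPM a prior count of 2. Protein sequences were not used here, and some items are not reported here.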

Additional observations from a re-analysis of the deposited data

How the results depend on the processing

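Mrgprd and Mrgprx1 kept their direction and their call in 10 of 11 alternatives, with log2 fold changes of 0.55 to 0.69 and -1.41 to -1.12. The exception was the fit with no replicate block, where Mrgprd was at 0.59, Mrgprx1 at -1.31 and Mrgpra3 at -0.65, with edgeR adjusted p-values of 0.63, 0.251 and 0.76; it called 0 genes and 0 receptors. The SE of Mrgprd was 0.39 there and 0.10 with the block.

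Mrgpra3 kept its direction in all 11 alternatives and its call in 4. Apart from no block, it missed with at least 10 counts in every culture (-0.56, edgeR adjusted p 0.0522), upper-quartile scaling (-0.53, 0.0642), raw library sizes (-0.54, 0.0536) and DESeq2 (-0.56, 0.0832); the cause was not tested. Leaving out 1 pair gave -0.73 to -0.40 for Mrgpra3, 0.55 to 0.69 for Mrgprd, -1.41 to -1.12 for Mrgprx1, 2 to 3 called receptors, and 878 to 1571 called genes against 1591. Without replicate 2, the 3 were Mrgprd, Mrgprx1 and Mrgprb5, which then passed the filter (2.87, edgeR adjusted p 0.0193), and Mrgpra3 was lost. Mrgprb5 passed only through treated replicates 1 and 3, at 24 and 14 counts against 3 and 3 in their vehicle partners. The difference itself thus decided the filter, and no conclusion is drawn from that call. The lowest total, 878, came without replicate 1; the cause was not tested. The threshold on fold change also sets the total, 3505 genes without it. The shares of 3.32% higher and 5.38% lower belong to the main fit, with 607 and 984 genes. ComBat-seq with limma called 1012 higher and 1115 lower, DESeq2 356 and 899, and edgeR with upper-quartile scaling 666 and 841. Among other family genes, 0 were called, but 1 with no low-count filter (Mrgpra9, edgeR adjusted p 0.0114) and 1 after ComBat-seq (Mrgpra4, limma adjusted p 0.0107).

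Mrgpre was not called in any of 11 alternatives (0.03 to 0.21). The ratio of Mrgprd to Mrgprx1 shifted by 1.81 to 2.07 without 1 pair and by 1.90 with a pseudocount of 1. Mean CPM of each receptor moved by less than its SD with raw library sizes. Depth limits Mrgprb4 and Mrgprb5, whose values rest on 0 to 24 counts a library.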

Other observations

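Within 500 kb of a listed receptor, 30 genes outside the family are listed, and 19 of them were tested. Of these, 0 were called higher and 2 lower, both named after their values were seen; over all tested genes 3.32% were called higher and 5.38% lower. Shank2, a postsynaptic scaffold gene 217 kb from Mrgpre, had a log2 fold change of -0.58 ± 0.10 (SE), from 24.6 to 16.9 CPM, with an adjusted p-value of 0.00315 in edgeR's quasi-likelihood test (Benjamini-Hochberg). Fgf3, a fibroblast growth factor gene 470.4 kb from Mrgprd, was at -1.03 ± 0.30 (SE), from 1.22 to 0.618 CPM, with an adjusted p-value of 0.0368 in that test. Tpcn2, the nearest of these genes to Mrgprd at 30.8 kb, was at 0.47 ± 0.14 (SE), with an adjusted p-value of 0.0375 in that test. Ccnd1, 374.9 kb from Mrgprd, was at -0.49 ± 0.10 (SE), with 0.00726. Each lay below the fold-change threshold and was also named after its values were seen.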
